A study of Mus musculus with 5 samples.

Results

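Ppp1r3e and 9 other genes of glycogen metabolism were described in HT22 cells, an immortalized mouse line derived from hippocampus, after GAS5 knockdown. The 10 genes were Ppp1r3b, Ppp1r3c, Ppp1r3d, Ppp1r3e and Ppp1r3f, which encode targeting subunits of protein phosphatase 1, the synthesis genes Gys1 and Gbe1, and the phosphorylase genes Pygb, Pygl and Pygm, out of 55487 genes in the counts table. They were chosen from measured values, since the counts of Ppp1r3e were lower in each knockdown library than in the controls. The values of Ppp1r3e between KD and NC are therefore given as a description, without a test. All cells were HT22 cells of 1 line, transfected with 10 nM of siRNA and collected after 48 h. The KD group held 1 library of GAS5 siRNA210 and 2 libraries of GAS5 siRNA596, and the NC group held 2 libraries of NC siRNA, a negative control. No source states that libraries of a group came from separate cultures, so each *P*-value measures only the spread between these libraries, which may be technical.

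Glycogen is the branched storage polymer of glucose. In brain tissue it is held mainly by astrocytes, and neurons also carry the enzymes that make it and break it down. Glycogen synthase lengthens the chains, the branching enzyme adds branches and glycogen phosphorylase releases glucose units. Synthase is active when dephosphorylated and phosphorylase when phosphorylated, so protein phosphatase 1 favours storage. Targeting subunits of the PPP1R3 family bring the catalytic subunit of that phosphatase to glycogen and to these enzymes.

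Total counts ran from 30660265 to 36492134 per library. Gas5, the targeted lncRNA, stood at 90.4 and 76.0 CPM in NC replicates 1 and 2, 59.7 CPM with siRNA210, and 65.9 and 179 CPM in siRNA596 replicates 1 and 2. CPM here are counts scaled to the library size with the TMM factors of edgeR. Gas5 in the library labelled siRNA596 replicate 2 went against that label. That library also stood apart over all genes. Among 10574 genes that averaged 5 CPM or more, 3428 differed there by more than 2-fold from the mean of the other 4 libraries, against 55 to 108 in each of those. Fold changes of the listed genes are thus given for all 5 libraries (KD 3, NC 2) and for 4 libraries without it (KD 2, NC 2). The neuronal markers Snap25, Nefl, Dcx and Stmn2, from a list of 8, had no count in any library, and the summed level of the list ran from 51.0 to 101 CPM in KD and from 94.6 to 102 CPM in NC. The astrocyte list of 7 genes, of which Aqp4 had no count, summed to 109 to 112 CPM in KD and 106 to 115 CPM in NC. The mesenchymal genes Col1a1, Col1a2 and Vim together reached 7720 to 8370 CPM in KD and 7470 to 7570 CPM in NC. The oligodendrocyte and microglia lists summed to at most 3.24 and 2.16 CPM in any library. None of the marker genes tested, 3 of them neuronal, passed an unadjusted *P* of 0.05 in edgeR over 5 libraries. Of all tested genes 0.372% did. The marker comparison is given for 5 libraries only.

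The sequences upstream of Gys1, Gbe1 and Pygb are shown because these were the 3 most abundant of the listed genes. Each run holds the 250 bases before the transcription start in RefSeq (GRCm38.p6), read 5′ to 3′ on the strand of the gene. Capitals mark matches on either strand to ACGTG or GCGTG, the core letters of hypoxia-response elements. The core letters of glucocorticoid-response elements, ACANNNTGT, had no match in them.
Gys1, plus strand, chr7:45434589-45434838: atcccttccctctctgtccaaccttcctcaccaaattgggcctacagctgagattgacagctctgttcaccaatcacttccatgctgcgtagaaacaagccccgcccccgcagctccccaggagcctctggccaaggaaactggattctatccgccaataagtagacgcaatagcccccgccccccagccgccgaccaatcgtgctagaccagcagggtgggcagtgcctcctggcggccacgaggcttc
Gbe1, plus strand, chr16:70313699-70313948: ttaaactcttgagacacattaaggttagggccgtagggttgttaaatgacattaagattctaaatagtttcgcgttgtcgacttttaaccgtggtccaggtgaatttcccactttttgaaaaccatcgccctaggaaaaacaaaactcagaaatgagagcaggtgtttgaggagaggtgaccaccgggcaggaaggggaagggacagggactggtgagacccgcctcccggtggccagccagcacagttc
Pygb, plus strand, chr2:150786546-150786795: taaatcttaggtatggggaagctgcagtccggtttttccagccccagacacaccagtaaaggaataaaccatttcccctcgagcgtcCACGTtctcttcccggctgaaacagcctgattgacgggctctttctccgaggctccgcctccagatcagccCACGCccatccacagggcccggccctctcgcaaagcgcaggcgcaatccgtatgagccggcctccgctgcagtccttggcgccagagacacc
Neither upstream stretch of Gys1 or Gbe1 held any of these letters. Pygb held ACGTG 163 bases and GCGTG 92 bases before the start. Of the other listed genes with an entry, Ppp1r3c, Ppp1r3d, Pygl and Pygm held both ACGTG and GCGTG, and Ppp1r3f held GCGTG only. Over all 32851 promoter windows of this length, ACGTG was found in 16.6%, GCGTG in 28.2% and ACANNNTGT in 5.84%. A match is a description of letters, and its absence says nothing of any factor. Of the 10 genes, 8 had a RefSeq promoter entry, and Ppp1r3b and Ppp1r3e were not among them.

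Ppp1r3e, which encodes a glycogen-targeting subunit of protein phosphatase 1, was measured at a low level. The gene (ENSMUSG00000072494) lies on the minus strand of chromosome 14, chr14:54872669-54877550 in GRCm38. It has 3 exon blocks with 2508 exonic bases in all, and no other annotated gene overlaps it. Its counts were 90 and 100 in NC replicates 1 and 2, 39 with siRNA210, and 30 and 22 in siRNA596 replicates 1 and 2. In TMM-normalized CPM these were 2.56, 2.61, 1.09, 0.839 and 0.833. Both NC libraries lay above all 3 KD libraries, the pattern for which the gene was chosen. The mean was 2.58 ± 0.034 CPM (SD, n = 2) in NC and 0.921 ± 0.147 CPM (SD, n = 3) in KD. The siRNA210 library stood at 42.2% of the NC mean and the siRNA596 libraries at 32.5% and 32.3%. The fitted log2 fold change was -1.48 (SE 0.38) over 5 libraries and -1.42 (SE 0.34) over 4, which correspond to 2.80-fold and 2.68-fold lower levels. The level relative to NC was thus much the same in the library that stood apart and in the other siRNA596 library, at 22 and 30 counts. That both lay below NC was part of the choice. Gas5 was at 79.2% of its NC mean in siRNA596 replicate 1 and at 215% in the library that stood apart. An offset for exon length, fitted since that library varied with length, gave -1.61. Bulk RNA cannot tell fewer cells with the transcript from less transcript per cell.

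Low counts in this table were not evenly spread over odd and even numbers. Among genes with 1 to 20 counts, 62.0% to 68.0% of counts were even in each library, against 49.2% to 50.5% at 100 to 1000 counts. More genes had exactly 2 counts than exactly 1 in every library, for example 1958 against 884 in NC replicate 1. Whether the mates of a read pair were counted separately was not tested. No counting interval is therefore given for Ppp1r3e, which had 22 to 100 counts per library.

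**Figure D1:**
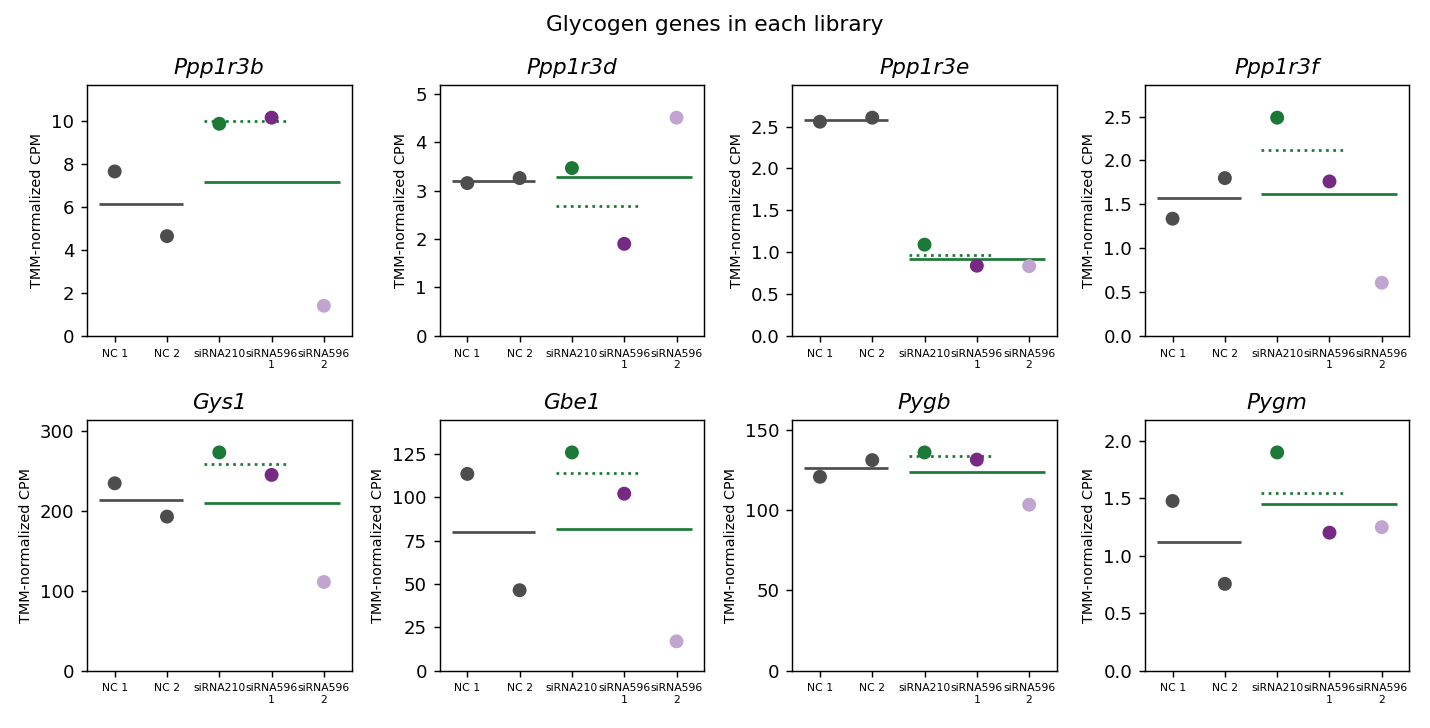
TMM-normalized CPM (vertical axes, from 0) in each of the 5 libraries (horizontal axes) for the 8 listed genes that passed the filter on low counts. Points are libraries, solid lines the means of NC (n = 2) and KD (n = 3), and dotted lines the KD mean without siRNA596 replicate 2 (n = 2). Ppp1r3e is at 2.56 and 2.61 CPM in NC and at 0.833 to 1.09 CPM in KD, while Gbe1 and Ppp1r3b spread widely within both groups.

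Of 8 genes annotated within 50 kb of Ppp1r3e, 5 had at most 6 counts in any library, and Homez, Bcl2l2 and Pabpn1 passed the filter. Homez, a homeobox gene 1708 bases away on the same strand, stood at 6.71 and 6.86 CPM in NC, 6.43 with siRNA210, and 7.71 and 3.48 CPM in siRNA596 replicates 1 and 2. Its log2 fold change was -0.20 over 5 libraries and 0.06 over 4. Bcl2l2, an anti-apoptotic member of the Bcl2 family 5827 bases away, stood at 36.7 and 36.4 CPM in NC, 34.0 with siRNA210, and 34.6 and 25.6 CPM in the siRNA596 libraries. Each KD library was below both NC libraries, as for 9.48% of all tested genes. Its log2 fold changes were -0.22 and -0.09. Pabpn1, a nuclear poly(A)-binding protein gene 14950 bases away, gave -0.05 and -0.08. None of these 3 genes met the criteria for a changed gene, which were an unadjusted *P* under 0.05 and more than a 2-fold change. Over 5 libraries 0.173% of all tested genes met them as lower in KD and 0.18% as higher. Over 4 libraries 0.51% and 0.366% did.

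Among genes whose symbols start with Ppp1r, most of which encode regulatory subunits of protein phosphatase 1, 26 of 48 passed the filter on low counts. Ppp1r3e was chosen on this comparison and is left out of the count. Of the other 25, 0 met the criteria over 5 libraries, where 0.173% of all tested genes met them as lower in KD and 0.18% as higher, and 0 over 4 libraries, where 0.51% and 0.366% did. The 5 genes with the pattern most like Ppp1r3e across the 5 libraries were 6330537M06Rik, Olfr1355, Gm27003, Gm4524 and Gm42798, with root mean square differences of 0.125 to 0.185 in log2(CPM + 1). 6330537M06Rik, the closest, stood at 2.47 and 2.03 CPM in NC, 1.258 with siRNA210, and 0.922 and 0.833 CPM in the siRNA596 libraries. Olfr1355, the next, had 1 count in siRNA596 replicate 2, at 2.82% of its NC mean, where Ppp1r3e stood at 32.3%. The 1 added to CPM narrows fold differences at such low levels, so likeness by this measure does not mean equal fold changes.

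None of the other targeting subunits met the criteria for a changed gene. Ppp1r3b encodes the subunit known from liver. It had 269 and 178 counts in NC, 353 with siRNA210, and 363 and 37 in siRNA596 replicates 1 and 2, or 7.65, 4.64, 9.87, 10.2 and 1.40 CPM. The siRNA210 and siRNA596 replicate 1 libraries lay above both NC libraries and siRNA596 replicate 2 lay far below. The log2 fold change was 0.22 (SE 0.80, edgeR quasi-likelihood, Benjamini-Hochberg adjusted *P* = 0.973) over 5 libraries. Without siRNA596 replicate 2 it was 0.70 (SE 0.24, edgeR adjusted *P* = 0.967), and its unadjusted *P* was under 0.05.

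Ppp1r3d, a broadly expressed subunit gene with 1 exon on chromosome 2, stood at 3.16 and 3.26 CPM in NC, 3.47 with siRNA210, and 1.90 and 4.51 CPM in siRNA596 replicates 1 and 2. The KD libraries lay on both sides of NC, and those of siRNA596 were at its extremes. Its log2 fold change was 0.03 (SE 0.44) over 5 libraries and -0.26 (SE 0.33) over 4, with edgeR adjusted *P* of 0.991 and 0.975. Ppp1r3f, a subunit gene on chromosome X, stood at 1.34 and 1.80 CPM in NC, 2.49 with siRNA210, and 1.76 and 0.606 CPM in the siRNA596 libraries, and the groups overlapped. Its log2 fold change was 0.05 (SE 0.64) over 5 libraries and 0.43 (SE 0.35) over 4. Bases shared with Foxp3, Flicr and Gm36995, added up gene by gene, came to 58.0% of its exonic bases. A base shared with several of them counts each time. Its counts are uncertain, since the strand setting is not stated in the sources used here and Gm36995 lies on the same strand. Ppp1r3c, the subunit also called PTG, was not detectable at this depth beyond 4 counts in the siRNA210 library, with 0 counts in the other 4. A count of 0 allowed up to 0.0782 to 0.114 TMM-normalized CPM, taking 3 counts as the floor per library. Such floors cover counting error only and take counts as independent. They would be too low if the mates of a read pair were counted separately, which was not tested.

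Per kilobase of exon, the levels in NC placed Ppp1r3e (1.02 and 1.04 CPM per kb), Ppp1r3b (1.23 and 0.746) and Ppp1r3d (0.966 and 0.997) close together, with Ppp1r3f below (0.259 and 0.349). Ppp1r3b could not be ordered against the other 2, since its NC libraries lay on both sides of them. Ppp1r3e was slightly above Ppp1r3d in both NC libraries, a difference that was not tested. The level of Ppp1r3f was divided by all its exonic bases, including those shared with other genes, so its place is uncertain. The family sum and shares include it. Ppp1r3e made up 29.4% and 33.2% of the summed CPM per kb of the 7 targeting-subunit genes in NC. In KD its share was 12.1% with siRNA210 and 11.4% and 15.8% in siRNA596 replicates 1 and 2. The share of Ppp1r3b was 35.4% and 23.8% in NC, 44.0% with siRNA210, 55.5% in siRNA596 replicate 1 and 10.8% in replicate 2. The leading gene of the family in siRNA596 replicate 2 was Ppp1r3d, at 65.8%. The family sum was 3.48 and 3.13 CPM per kb in NC, 3.61 with siRNA210, 2.94 in siRNA596 replicate 1 and 2.097 in replicate 2.

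**Figure D2:**
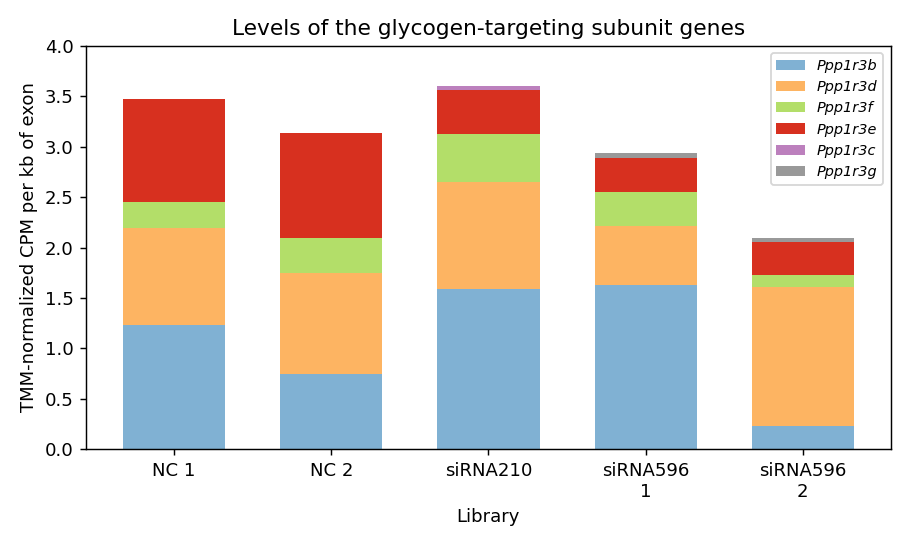
Stacked TMM-normalized CPM per kb of exon (vertical axis, from 0) of the targeting-subunit genes with any count in each of the 5 libraries (horizontal axis). Ppp1r3e takes 29.4% and 33.2% of the stack in NC and 11.4% to 15.8% in KD, and the stack of siRNA596 replicate 2 is mostly Ppp1r3d.

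The synthesis enzymes were far more abundant than the targeting subunits and neither passed the adjustment over all genes. Gys1, glycogen synthase of muscle and brain, lies at chr7:45434844-45456619. It had 8266 and 7411 counts in NC, 9791 with siRNA210, and 8784 and 2935 in siRNA596 replicates 1 and 2. These correspond to 235, 193, 274, 246 and 111 CPM. As for Ppp1r3b, siRNA210 and siRNA596 replicate 1 lay above both NC libraries and siRNA596 replicate 2 below them. The log2 fold change was -0.03 (SE 0.41, edgeR adjusted *P* = 0.992) over 5 libraries. Over 4 it was 0.28 (SE 0.11, edgeR adjusted *P* = 0.967), a 1.21-fold difference with an unadjusted *P* under 0.05. Of its exonic bases 6.47% are shared with Ruvbl2 on the opposite strand.

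Gbe1, the branching enzyme on chromosome 16, varied as much within groups as between them. Its counts were 3991 and 1780 in NC, 4504 with siRNA210, and 3654 and 446 in siRNA596 replicates 1 and 2, or 114, 46.4, 126, 102 and 16.9 CPM. The NC replicates differed by 2.45-fold. The log2 fold change was 0.03 (SE 0.83, edgeR adjusted *P* = 0.996) over 5 libraries and 0.51 (SE 0.31, adjusted *P* = 0.967) over 4. It turned to -0.47 without NC replicate 2 and was 0.82 without NC replicate 1. Per kilobase, Gys1 (49.1 and 40.3 CPM per kb in NC) stood above Gbe1 (21.2 and 8.67) in every library.

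The phosphorylase of these cells was almost wholly Pygb, the brain form. It had 4252 and 5038 counts in NC, 4869 with siRNA210, and 4710 and 2733 in siRNA596 replicates 1 and 2. In CPM these were 121, 131, 136, 132 and 104, the narrowest relative spread among the 4 listed enzymes that were tested. Its log2 fold change was -0.03 (SE 0.22) over 5 libraries and 0.08 (SE 0.08) over 4, with edgeR adjusted *P* of 0.985 and 0.969. Pygm, the muscle form, had 52 and 29 counts in NC, 68 with siRNA210, and 43 and 33 in the siRNA596 libraries, or 1.48, 0.756, 1.90, 1.20 and 1.25 CPM. The groups overlapped, and its log2 fold change was 0.38 (SE 0.51) over 5 libraries and 0.48 (SE 0.46) over 4, with edgeR adjusted *P* of 0.963 and 0.969. Pygl, the liver form, had no count in any library. Per kilobase, Pygb made up 98.7% ± 0.665 (SD, n = 2) of the phosphorylase level in NC and 98.3% ± 0.348 (SD, n = 3) in KD. By a two-sided exact permutation test *P* was 0.6, and 0.2 is the smallest value this design allows.

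Counted over the list, 8 of the 10 genes passed the filter, and Ppp1r3c and Pygl did not. Over 5 libraries, of the 7 other than Ppp1r3e, 5 had a log2 fold change above 0 and 2 below. Of 16142 tested genes, 8238 were above 0 and 7904 below. Apart from Ppp1r3e, which was chosen on this comparison, 0 of the 7 others met the criteria, where 0.173% of 16142 tested genes met them as lower in KD and 0.18% as higher. An unadjusted *P* under 0.05 was found for 0 of the 7, and for 0.372% of all genes. In all genes, 9.48% lay below both NC libraries in every KD library and 8.3% above, against 0 and 0 of the 7. Ppp1r3e lay below by the choice. The median log2 fold change of the 7 others was 0.03, beside 0.01 over all tested genes.

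Over 4 libraries 6 of the 7 other than Ppp1r3e were above 0, as were 7850 of 15867 tested genes. Of the 7 others, Ppp1r3b and Gys1 had an unadjusted *P* under 0.05 in edgeR, where 3.3% of 15867 tested genes did. The criteria were met as lower by 0.51% of all genes and as higher by 0.366%, and by 0 of the 7 others. Ppp1r3b, Gys1 and Pygb lay above both NC libraries in both KD libraries, as did 16.7% of all genes. None of the 7 lay below both, as 16.2% of all genes did. The median log2 fold change of the 7 others was 0.43, beside -0.002 over all tested genes. No adjusted *P* in edgeR was under 0.05 for any gene of the table in either fit, whereas DESeq2 without siRNA596 replicate 2 gave 1 gene.

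**Figure D3:**
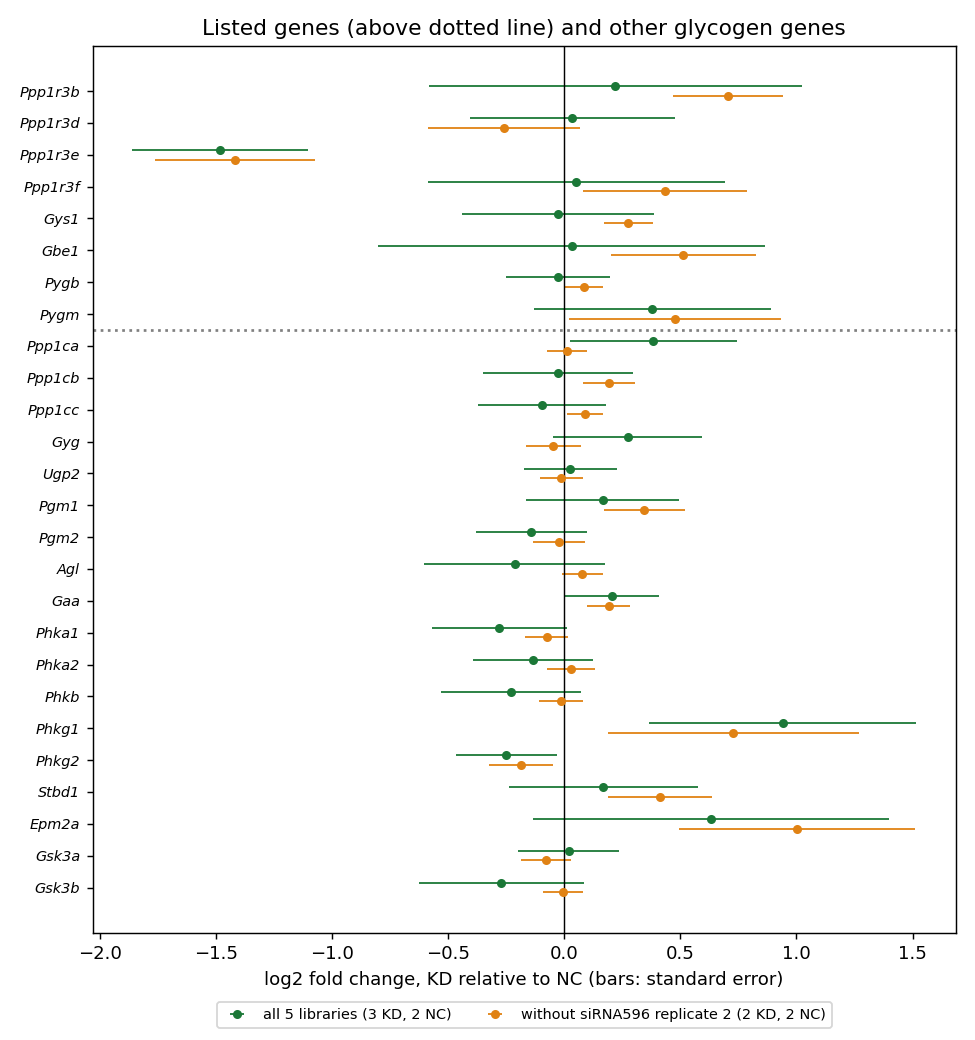
Log2 fold change of KD relative to NC (horizontal axis) with its standard error (bars) for the 8 listed genes above the dotted line and 18 further glycogen genes below it (vertical axis). Green marks the fit of 5 libraries and orange the fit without siRNA596 replicate 2. Ppp1r3e is at -1.48 and -1.42, and the other listed genes lie between -0.26 and 0.70.

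Of a list of 22 further glycogen genes, 18 passed the filter. None of the 18 had an unadjusted *P* under 0.05 in edgeR over 5 libraries, where 0.372% of all tested genes did. Over 4 libraries none did either, where 3.3% of all tested genes did. Over 5 libraries 9 were above 0 and 9 below, and over 4 libraries 10 and 8. Those 18 had a median log2 fold change of -0.005 over 5 libraries and 0.02 over 4. Epm2a, Stbd1 and Pgm1 had the highest log2 fold changes over 4 libraries among those with a mean of at least 50 counts. Epm2a encodes laforin, a phosphatase that acts on glycogen. Epm2a stood at 2.42 and 0.678 CPM in NC, 2.54 with siRNA210, and 3.63 and 0.985 CPM in siRNA596 replicates 1 and 2. NC replicate 2 was the lowest of all, and the log2 fold change over 4 libraries was 1.00 (SE 0.51, edgeR adjusted *P* = 0.967). Stbd1, which anchors glycogen to membranes, and Pgm1, which interconverts glucose phosphates, had 0.41 (SE 0.22) and 0.34 (SE 0.17). Phkg1, a catalytic subunit of phosphorylase kinase named here after its values were seen, had 13 and 32 counts in NC, 32 with siRNA210, and 40 and 39 in the siRNA596 libraries. Its log2 fold change was 0.73 (SE 0.54) over 4 libraries. With NC replicate 2 also left out it was 1.44, against 1 NC library with 13 counts and so with no spread between controls. At the lower end, with a mean of at least 50 counts, were Phkg2, another such subunit, at -0.19 (SE 0.14), Gsk3a, a kinase that phosphorylates glycogen synthase, at -0.08 (SE 0.11), and Phka1, a regulatory subunit of phosphorylase kinase, at -0.08 (SE 0.09). Ppp1r3a and Nhlrc1 had no count, and Ppp1r3g and Gys2 had at most 5 counts in any library.

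**Figure D4:**
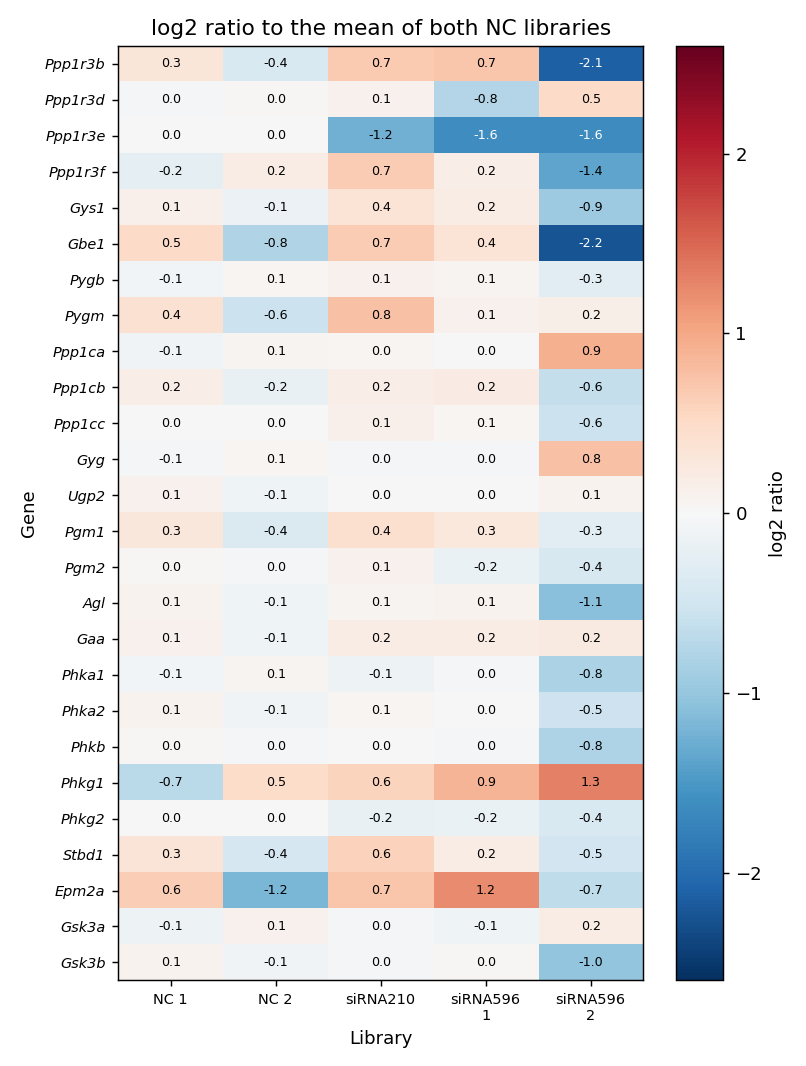
Log2 ratio of each library (horizontal axis) to the mean of both NC libraries for the 26 glycogen genes that passed the filter (vertical axis), with the value in each cell. Ppp1r3e is lower in all KD columns. Epm2a, Gbe1 and Pygm are lowest in NC 2, and Gbe1 and Ppp1r3b are lowest in siRNA596 replicate 2.

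Several glycogen genes differed between libraries of the same group. In NC replicate 2, 4 of the 7 tested listed genes other than Ppp1r3e had their lowest value of the 4 libraries. Of all tested genes 34.3% did. Ppp1r3e could not be lowest there, by the choice. Relative to the mean of the other 3 libraries, the log2 ratio there was -1.29 for Gbe1, -1.01 for Pygm, -0.99 for Ppp1r3b and -0.38 for Gys1. Of the 26 glycogen genes in all, 6 were at least 1.5-fold higher in NC replicate 1 than in NC replicate 2, as were 10.5% of tested genes. In the other direction 1 (Phkg1) was at least 1.5-fold higher in NC replicate 2. The share of all tested genes in that direction was not counted, so the 2 directions cannot be compared. With NC replicate 2 and siRNA596 replicate 2 both left out, the log2 fold change was 0.39 for Ppp1r3b, 0.14 for Gys1, 0.01 for Gbe1 and -1.40 for Ppp1r3e.

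In siRNA596 replicate 2, 6 of the 8 listed genes had their lowest value of the 5 libraries, where 43.7% of all tested genes did. These were Ppp1r3e and 5 of the 7 others. Over all tested genes, that library varied with transcript length. When genes were cut into 4 equal bins by exon length, the median log2 ratio to the mean of the other 4 libraries was 0.32 in the shortest bin (57 to 2023 bases) and -0.63 in the longest (6089 bases and more). These medians were taken with 1 added to CPM, which narrows ratios at low levels, and the gene values that follow without it. Ppp1r3b (6216 exonic bases) and Gbe1 (5352) were at -2.53 and -2.52, and Gys1 (4789) was at -1.09. Pygb (4809 bases) was at -0.33, although its length is close to that of Gys1. Ppp1r3d (3267 bases) was at 0.61. The part of transcript length in these values was not tested beyond the offset.

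**Figure D5:**
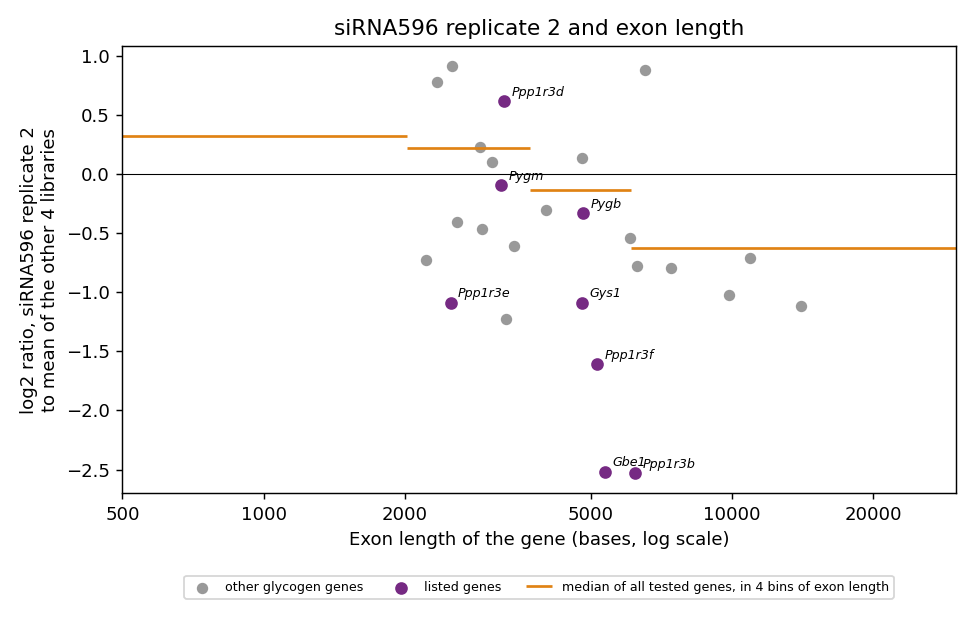
Log2 ratio of siRNA596 replicate 2 to the mean of the other 4 libraries (vertical axis) against exon length in bases (horizontal axis, log scale) for the 26 glycogen genes that passed the filter. Orange lines are medians of all tested genes in 4 bins of exon length, from 0.32 to -0.63, and Ppp1r3b and Gbe1 lie below them at -2.53 and -2.52. The medians were taken with 1 added to CPM and the points without it.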

How the data were processed

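RNA-Seq of 5 HT22 libraries was analysed. A treatment label calls the NC libraries untreated, but they were taken as NC siRNA from their titles and the study's methods. The counts were deposited by the authors as whole numbers of reads per gene, without normalization, made with Trimmomatic, HISAT2 2.1.0, SAMtools 1.7 and featureCounts 2.0.1 on GRCm38. Strand setting and treatment of multiply mapped reads are not given in the sources used here. A deposited table of the authors' DESeq2 comparison holds mean expression, log2 fold changes, standard errors, Wald statistics and *P*-values, and was not used.

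Identifiers were named with the GENCODE annotation of GRCm38 (55227 of 55487 matched). KD was compared with NC by edgeR 4.0.16 (R 4.3.3) with filterByExpr, TMM and the quasi-likelihood test, with Benjamini-Hochberg adjustment over all tested genes. Criteria were an unadjusted *P* under 0.05 and an absolute log2 fold change above 1. Alternatives were DESeq2 1.42.0, its size factors, no filter, an exon-length offset, each library left out and a replicate block. Leaving out siRNA596 replicate 2 together with NC replicate 2 was chosen after seeing the data. Steps were tested on simulated data.

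The members and lists were chosen with earlier results of these data known. Named genes were Gas5, the listed genes, the 3 glycogen genes furthest from 0 in each direction over 4 libraries among those with a mean of at least 50 counts and any with an unadjusted *P* under 0.05, Ppp1r genes meeting the criteria, tested genes within 50 kb of Ppp1r3e and the 5 genes of most similar pattern. Ruvbl2, Foxp3, Flicr and Gm36995 are named for shared exons.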

Additional observations from a re-analysis of the deposited data

How the results depend on the processing

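The log2 fold change of Ppp1r3e was -1.40 to -1.62 under all 11 alternatives, and -1.62 to -1.42 when 1 library was left out in turn. It is given without a call, since it was chosen on this comparison. None of the 7 other tested listed genes met the criteria under any alternative. For these, 54 of 77 values kept their direction, 23 turned it and 0 had an adjusted *P* under 0.05. Leaving out 1 library in turn gave -0.12 to 0.70 for Ppp1r3b, -0.26 to 0.31 for Ppp1r3d, -0.40 to 0.43 for Ppp1r3f, -0.26 to 0.28 for Gys1, -0.47 to 0.82 for Gbe1, -0.098 to 0.084 for Pygb and -0.029 to 0.94 for Pygm, and -0.87 to 0.07 percentage points for the KD minus NC difference in the Pygb share, which was -0.4 with all libraries. The exon-length offset gave -0.065 for Ppp1r3d and 0.0035 for Pygb. DESeq2 without siRNA596 replicate 2 gave -0.26 for Ppp1r3d, 0.28 for Gys1 and 0.08 for Pygb. With both siRNA596 replicate 2 and NC replicate 2 left out, the values were -0.23 for Ppp1r3d, 0.14 for Gys1 and 0.15 for Pygb. The cause of these turns was not tested.

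The number of genes meeting the criteria was 57 over 5 libraries, 167 with no filter, 33 to 139 with 1 library left out (33 without NC replicate 2, 139 without siRNA596 replicate 2) and 175 with both of these left out. For siRNA596 against NC it was 41, and 426 with the replicate block. Same-numbered libraries of siRNA596 and NC had deviations correlated at 0.0967 over 2 pairs, and they share only a number. The siRNA210 library has no replicate. Ppp1r3e, Ppp1r3f and Pygm had at most 100 counts per library, and Ppp1r3c and Pygl at most 4.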
